A study of Mus musculus with 21 samples.

Results

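The type I interferon-stimulated genes described here are 37 genes of the 45706 in the deposited table, taken by gene symbol from a list drawn up with earlier results of these data known. All 37 were found. Each reached 1 TPM (a length-normalised share of the transcripts of a library) in at least 10 of the 21 libraries, so all 37 were among the 13503 genes tested.

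Type I interferons bind the receptor pair Ifnar1 and Ifnar2, and the kinases Jak1 and Tyk2 then phosphorylate Stat2. It joins Irf9 in a complex that binds a short response element in the promoters of its target genes. The induced proteins sense viral RNA or DNA, modify or degrade it, block translation or virus release, or feed back on the pathway. Endothelial cells carry the receptor and respond to the cytokine, which is known for restraining vessel growth in tumours.

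The RNA came from cells sorted for CD31 from tumours of E0771.lmb, a mouse mammary carcinoma line, grown in adult mice after a tamoxifen injection. The wild-type group (WT) had 11 samples from 9 tumours. The knockout group (KO, called Shb iECKO) had 10 samples from 8 tumours and carried Shb flox/flox with Cdh5-CreERt2, a tamoxifen-activated Cre driven by an endothelial promoter, which deletes the adaptor protein Shb in endothelium. Whether the WT mice carried a floxed allele or Cre is not stated in the labels, and any carried-over cells of other types keep Shb. Tumours were collected between day 14 and day 16. The protocol also names a Shb flox/flox; Vav1-cre line and a step that isolates CD45+ cells on magnetic beads before the CD31 sort, and no sample is assigned to that line. By column header the libraries fell into 4 experiments with 3 WT and 2 KO, 3 and 4, 2 and 2, and 3 and 2, whereas the sample titles give 3 KO samples in each of experiments 2 and 4. Samples outnumber tumours and the sharing is not given, so some of the spread behind the p-values may be that within a tumour.

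Endothelial markers were abundant in most libraries. The summed level of 10 pan-endothelial genes had a median of 7151 TPM in WT and 8576 TPM in KO. Pecam1, which encodes CD31, had a median of 1235 TPM and was low in 3 libraries. In experiment 4 these were WT replicate 2, with 95.04 TPM, and KO replicate 2, with 242 TPM, and in experiment 2 it was WT replicate 1, with 461 TPM. WT replicate 2 of experiment 3 carried the most transcripts of other cells, with 4841 TPM over 10 macrophage and monocyte markers, against a WT median of 208 TPM. Shb lay between 17.2 and 74.3 TPM in WT and between 6.00 and 52.7 TPM in KO. In experiments 2 and 4 every KO library was below every WT library in Shb, and in experiments 1 and 3 the groups overlapped. In those experiments the genotype therefore rests on the labels, and a value per gene also counts exons outside the deleted part. A pair of columns carry the same header, that of KO replicate 3 of experiment 2, and are called replicates 3a and 3b here. A sample titled KO replicate 3 of experiment 4 has no column of its own, and column 3b stands directly before those of experiment 4. Either column could be that sample, which was not settled, so values of experiments 2 and 4 follow the headers and depend on this placement.

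The promoters of these genes carried the response element more often than promoters at large. RefSeq promoter windows of GRCm38.p6, from 250 bases before to 50 bases after the start, were at hand for 27 of the 37 genes. The letters GAAANNGAAA, searched on both strands with overlapping matches counted, were found in 14 of these 27 windows (51.9%) and in 3.99% of the windows of 27025 genes. A match describes letters in a window and not a bound site. Stretches upstream of the start are shown for 7 of the genes because they hold the matches that the group shares, with GAAANNGAAA or its reverse complement in capitals.
Isg15 (chr4:156200863-156200908, minus strand): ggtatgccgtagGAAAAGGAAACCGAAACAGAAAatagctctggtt
Ifit1 (chr19:34640773-34640825, plus strand): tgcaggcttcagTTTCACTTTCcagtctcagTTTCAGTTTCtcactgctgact
Ifit3 (chr19:34583361-34583428, plus strand): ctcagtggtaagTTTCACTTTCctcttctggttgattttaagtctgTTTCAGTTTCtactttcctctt
Ifit3b (chr19:34607757-34607824, plus strand): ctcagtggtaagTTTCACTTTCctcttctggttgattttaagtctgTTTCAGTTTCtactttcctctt
Bst2 (chr8:71537575-71537614, minus strand): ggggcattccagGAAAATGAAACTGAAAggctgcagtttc
Oas3 (chr5:120777713-120777746, minus strand): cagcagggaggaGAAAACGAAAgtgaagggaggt
Rsad2 (chr12:26456551-26456584, minus strand): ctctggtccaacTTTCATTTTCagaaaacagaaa

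In Isg15 the 3 overlapping matches began between 78 and 66 bases before the start, and in Bst2 the 2 overlapping matches began at 130 and 124 bases. The stretches of Ifit3 and Ifit3b were identical over all 68 bases, and their longest protein-coding transcripts shared 97.8% of 1700 aligned bases, so reads could have been split between these 2 genes and their separate levels are uncertain. The median KO minus WT difference was 0.41 on the log2(TPM + 1) scale for the 14 genes with GAAANNGAAA and 0.35 for the 13 without it.

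The genes were expressed in nearly every library. TPM is per length, but values still moved with transcript length between experiments, as given below, so levels compare only roughly between genes. In the median library 8 genes stood above 100 TPM, 15 between 50 and 100 TPM and 14 at or under 50 TPM. The highest median level was that of Bst2 at 213 TPM, and Mx1 and Oas3 had the lowest at 5.09 and 8.12 TPM. Of the 37 genes 35 were above 0 in all 21 libraries, Mx1 was listed at 0 in 2 libraries and Ifi27l2a in 4. The summed level of the 37 genes lay between 740 and 3751 TPM in WT (median 2497) and between 793 and 4707 TPM in KO (median 3438). Both minima belonged to the low-Pecam1 libraries of experiment 4, where 31 of the 37 genes had their lowest value. In bulk samples fewer cells of a type and less RNA per cell cannot be told apart.

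**Figure D1:**
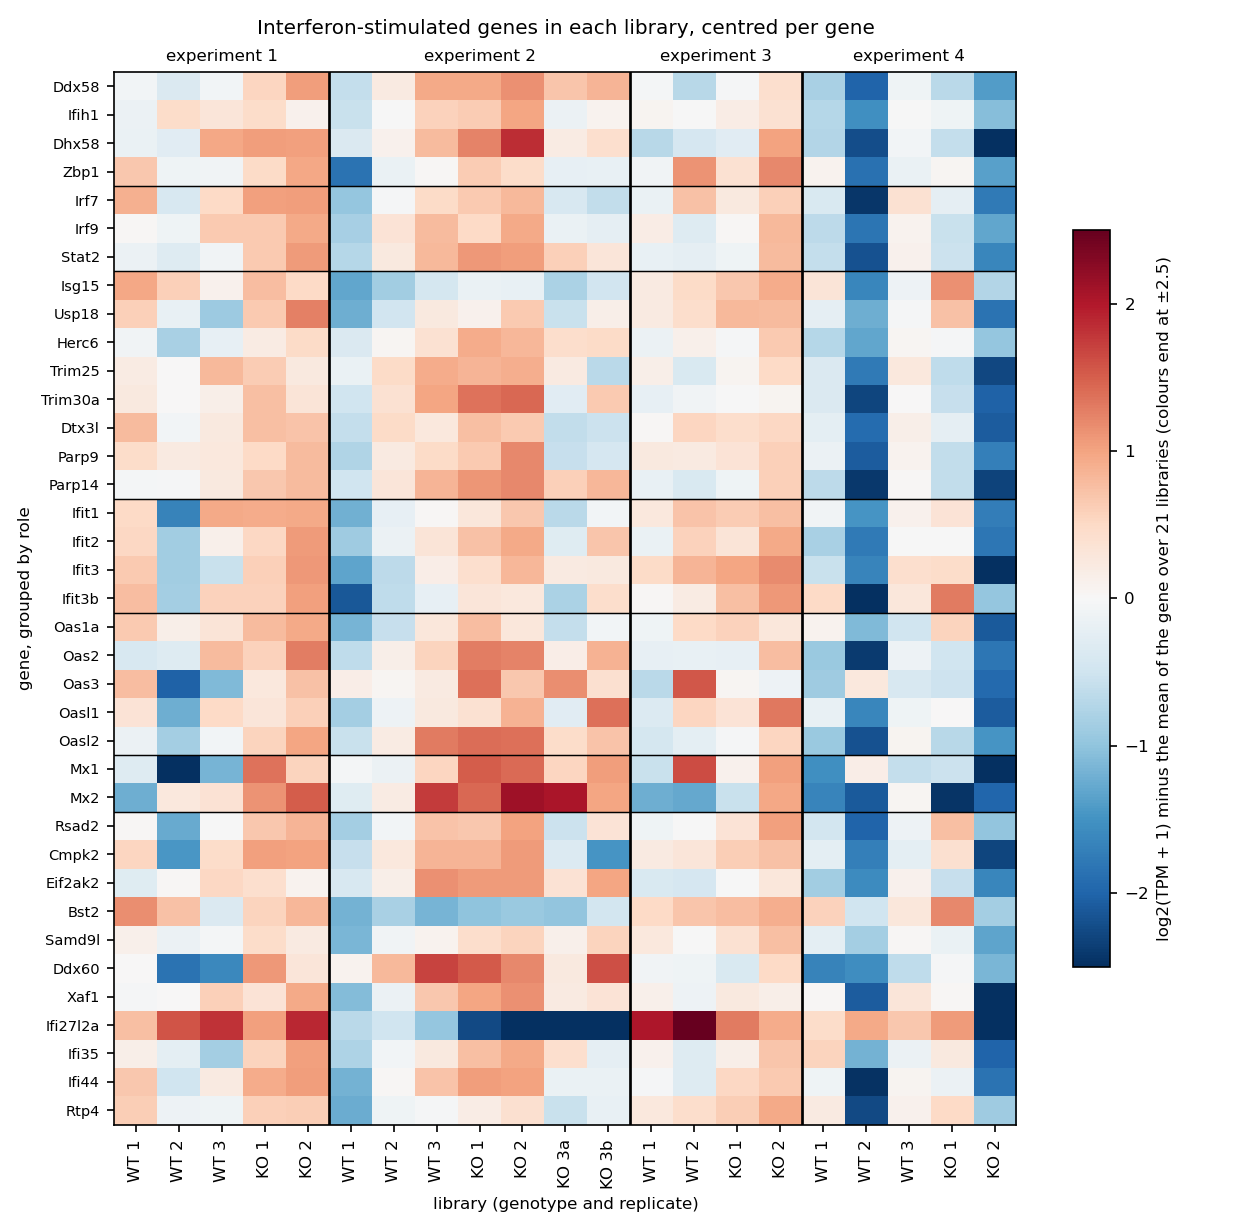
Level of each of the 37 genes (rows, grouped by role) in each of the 21 libraries (columns, by experiment and genotype), as log2(TPM + 1) minus the mean of the gene. Red is above and blue below that mean: WT replicate 2 and KO replicate 2 of experiment 4 are blue for most genes, and Ifi27l2a is blue in the KO libraries of experiment 2.

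The comparison of KO with WT asked whether loss of endothelial Shb goes with a different level of these transcripts. No gene of the group passed at a limma adjusted p under 0.05 over all genes, where 0.00741% of the genes tested did, and the smallest adjusted p in the group was 0.820. At an unadjusted p under 0.05 the count was 8 of 37 toward higher levels in KO, against 0.948% of all genes, and 1 of 37 toward lower levels, against 4.93%. The 8 were Rsad2, Ddx58, Ddx60, Herc6, Ifit3b, Mx2, Oasl2 and Oas2, and the other was Ifi27l2a. The experiment-adjusted difference was above 0 for 35 of 37, where 36.0% of all genes were above 0, and the 2 below 0 were Ifi27l2a and Trim25. The median difference was 0.44 on the log2(TPM + 1) scale for the group and -0.11 for all genes tested, which put the group's median 0.56 above the other. The KO mean was above the WT mean in each of the 4 experiments for 9 of 37 (Bst2, Ddx60, Herc6, Ifih1, Ifit3b, Isg15, Oas2, Rsad2 and Rtp4), against 3.49% of all genes, and below it in each for 0 of 37, against 10.9%. With KO replicate 3b placed in experiment 4 the first of these counts was 23 of 37, against 10.1% of all genes, and with 3a placed there it was 19, against 9.68%. Differences and ratios given here use log2(TPM + 1), on which low genes appear to change less than they do, and with the depth unknown no counting interval is given.

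The count at an unadjusted p under 0.05 rested on single libraries. Without KO replicate 2 of experiment 4 it was 22, beside 3.0% of all genes. It was 1 without KO replicate 2 of experiment 1 (0.553% of all genes) or WT replicate 1 of experiment 2 (0.519%). It was 2 without KO replicate 2 of experiment 3 (0.65%), or without WT replicate 2 (0.823%) or KO replicate 1 (1.09%) of experiment 4. It was 3 without WT replicate 2 of experiment 1 (0.797%) or KO replicate 1 of experiment 2 (0.91%). It was 4 without KO replicate 1 of experiment 1 (0.765%) or WT replicate 2 of experiment 3 (0.742%). It was 5 without WT replicate 1 of experiment 1 (0.914%) or of experiment 3 (0.982%). The same held without WT replicate 2 (0.747%) or KO replicate 2 (0.794%) of experiment 2. The count was 6 without WT replicate 3 of experiment 1 (1.07%) or KO replicate 3b of experiment 2 (1.17%). It stayed 8 without KO replicate 3a of experiment 2 (1.18%) or KO replicate 1 of experiment 3 (1.28%). It rose to 9 without WT replicate 3 of experiment 2 (1.26%) or WT replicate 1 of experiment 4 (1.07%). Without WT replicate 3 of experiment 4 it was 11 (2.02%). The median of the group relative to all genes stayed between 0.47 and 0.59 in the 21 fits that left out 1 library. With the mean levels of leukocyte and fibroblast markers added to the model the count was 0, beside 0.511% of all genes. The relative median was then 0.36. With the mean level of the pan-endothelial markers added instead, the count was 11, beside 1.27% of all genes, and the relative median 0.49. That fit was added after the data were examined.

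**Figure D2:**
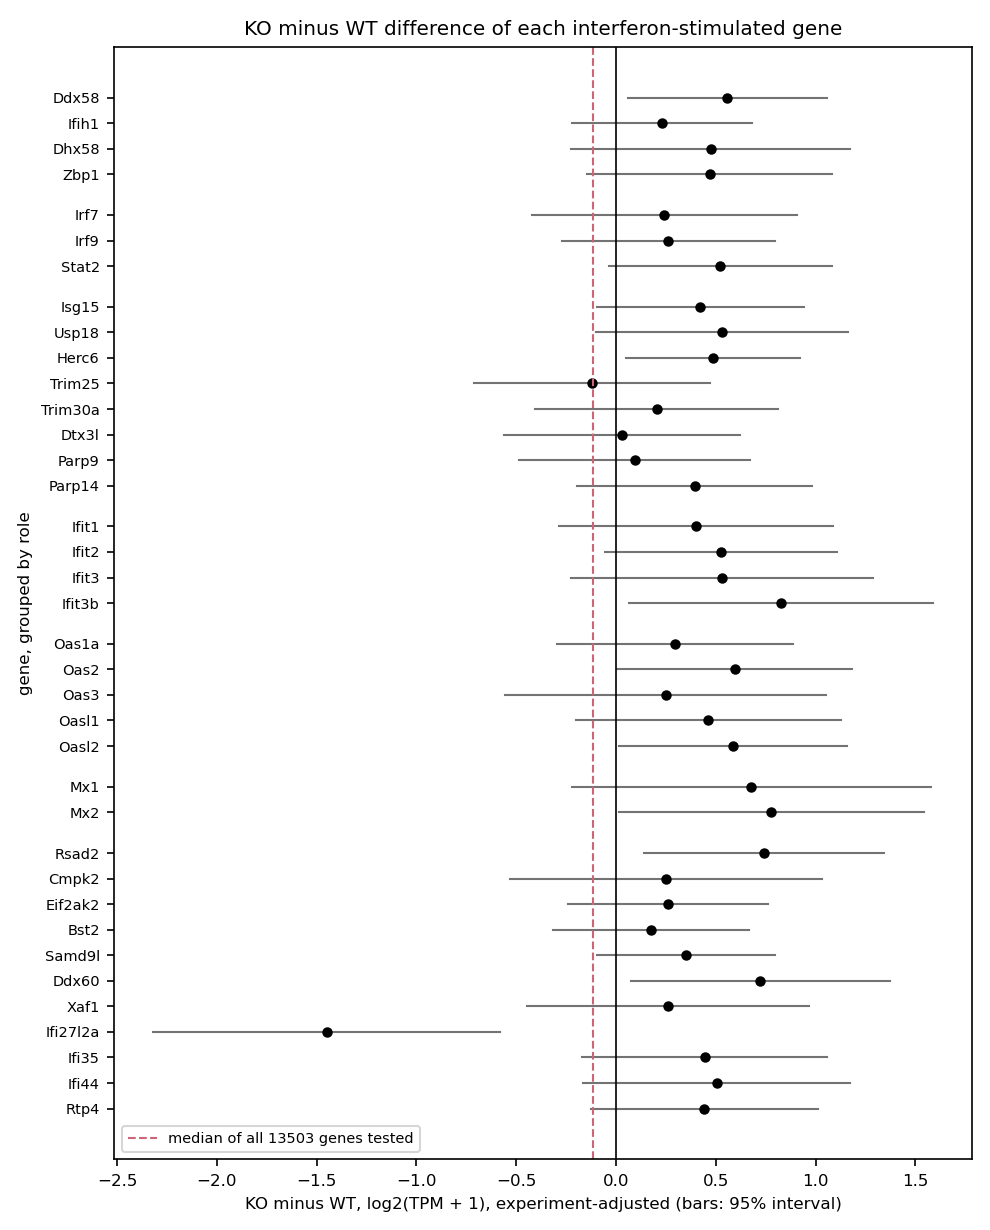
KO minus WT difference of each of the 37 genes (points) with its 95% interval (bars) on the log2(TPM + 1) scale, from limma with an experiment term. Of the 37 points 35 lie to the right of 0 and 8 intervals lie wholly above 0, Ifi27l2a lies at -1.45, and the dashed line is the median of all genes tested, -0.11.

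The 4 sensors of foreign nucleic acid all stood above 0 in KO minus WT, with differences between 0.23 and 0.56, and 1 of 4 was under an unadjusted p of 0.05. Ddx58, which encodes the RNA sensor RIG-I, ran from 29.2 through a median of 112 to 233 TPM in WT and from 45.0 through 185 to 267 TPM in KO. The ranges overlapped, with the lowest values of both groups in the low-Pecam1 libraries of experiment 4. Its difference was 0.56 (SE 0.24, limma adjusted p = 0.820), a ratio of 1.47. Ifih1, the sensor MDA5 of long double-stranded RNA, averaged 46.4 ± 16.4 TPM over the 11 WT libraries and 56.4 ± 19.9 TPM over the 10 KO libraries (mean ± SD). Dhx58, the sensor LGP2, which regulates the other RNA sensors, stood at 42.8 ± 23.1 and 74.3 ± 46.5 TPM. Zbp1, a sensor of Z-form nucleic acid that can start cell death, stood at 77.7 ± 41.9 and 101.9 ± 43.9 TPM. For these 3 the difference between means was smaller than the SD within KO.

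The 3 transcription factors of the group differed by 0.24 to 0.52, and 0 of 3 were under an unadjusted p of 0.05. Irf7, which amplifies interferon production, was the highest of the 3. It ran from 24.8 through a median of 135 to 255 TPM in WT and from 39.6 through 186 to 282 TPM in KO. Nearly the whole of the 2 ranges overlapped. Stat2, the subunit of the complex that activates transcription, averaged 71.3 ± 30.5 TPM over the 11 WT libraries and 113.9 ± 50.2 TPM over the 10 KO libraries (mean ± SD), with a difference of 0.52 (SE 0.27). Irf9, the subunit of the complex that contacts DNA, stood at 67.3 ± 29.2 and 84.1 ± 37.3 TPM, a difference of 0.26 (SE 0.26).

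Isg15, a ubiquitin-like protein attached to other proteins, was placed in a role group of 8 genes, not all of which act on Isg15. Of these 8, 7 stood above 0 and Herc6 alone was under an unadjusted p of 0.05. Herc6, the main ligase for Isg15 in the mouse, stood in experiment 1 at 23.2, 13.5 and 21.3 TPM in WT and at 28.4 and 34.5 TPM in KO. In experiment 2 it stood at 19.0, 25.5 and 32.3 TPM in WT and at 47.8, 44.2, 33.9 and 34.6 TPM in KO. Every KO library was above every WT library in both experiments. In experiment 3 the values were 22.0 and 26.9 TPM in WT and 24.0 and 39.4 TPM in KO, and in experiment 4 they were 14.5, 9.42 and 25.4 TPM in WT and 24.2 and 12.2 TPM in KO. There the groups overlapped. The difference over all experiments was 0.48 (SE 0.21, limma adjusted p = 0.820), a ratio of 1.40. Exons of Herc6 and of the processed transcript Gm45193 overlap by 1269 bases on the same strand, so the level of Herc6 is uncertain. Same-strand exon overlaps also hold for Rtp4 with Gm45338 (296 bases) and Irf9 with Rnf31 (123 bases).

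Isg15 itself ran from 29.6 through a median of 102 to 185 TPM in WT and from 53.7 through 109 to 210 TPM in KO, a difference of 0.42 (SE 0.25). The ranges overlapped, and in experiment 4 its KO values were 210 TPM, the highest of all libraries, and 56.4 TPM in the low-Pecam1 library. Usp18, the protease that removes Isg15 and dampens receptor signalling, averaged 17.4 ± 7.39 TPM over the 11 WT libraries and 26.9 ± 12.2 TPM over the 10 KO libraries (mean ± SD), a difference of 0.53 (SE 0.31). Parp14, an ADP-ribosyltransferase, had the highest mean of these 8 genes. It ran from 32.5 through a median of 173 to 320 TPM in WT and from 34.9 through 279 to 410 TPM in KO, and the groups overlapped.

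The remaining genes of this role group lay closer to 0. Trim25, the ubiquitin ligase that acts on RIG-I, ran from 28.01 through a median of 109 to 187 TPM in WT and from 19.4 through 116 to 185 TPM in KO. The ranges coincided, and the difference was -0.12 (SE 0.29). It was above 0 in 6 alternative fits, among them 0.08 without KO replicate 2 of experiment 4. Parp9 and Dtx3l, which encode a complex of an ADP-ribosyltransferase and a ubiquitin ligase, differed by 0.09 (SE 0.28) and 0.03 (SE 0.29), and both lay on either side of 0 across fits that left out 1 library. Their exons overlap by 458 bases on opposite strands. Trim30a, a regulator of inflammatory signalling, differed by 0.20 (SE 0.29).

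The 4 Ifit genes, whose proteins bind viral RNA and block its translation, stood 0.40 to 0.83 above WT on the log2(TPM + 1) scale, and 1 of 4 was under an unadjusted p of 0.05. Ifit2 had the highest mean of the family. It ran from 17.2 through a median of 54.7 to 91.9 TPM in WT and from 16.7 through 93.3 to 128 TPM in KO, a difference of 0.53 (SE 0.28). The KO median was above the highest WT library, and the lowest KO library, replicate 2 of experiment 4, was below all WT libraries. Ifit3b averaged 18.5 ± 10.4 TPM over the 11 WT libraries and 29.01 ± 13.001 TPM over the 10 KO libraries (mean ± SD), and its difference of 0.83 (SE 0.37, limma adjusted p = 0.820) was the highest of the 37, with an unadjusted p of 0.05 or more in 13 of 39 alternative fits. Its near copy Ifit3 stood at 50.9 ± 27.8 and 79.97 ± 33.5 TPM, a difference of 0.53 (SE 0.37). Ifit1 stood at 28.9 ± 15.3 and 37.3 ± 15.9 TPM, a difference of 0.40 (SE 0.33).

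The OAS family includes enzymes that sense double-stranded RNA and make the messenger that activates RNase L, which not every OAS-like protein does. Its 5 genes here stood 0.25 to 0.59 above WT. Oas2 and Oasl2 were under an unadjusted p of 0.05, which Oas2 no longer was in 21 of 39 alternative fits and Oasl2 in 19. Oasl2, an OAS-like protein, was the highest of the family and ran from 39.0 through a median of 152 to 444 TPM in WT and from 64.1 through 261 to 471 TPM in KO. The ranges overlapped, and WT replicate 3 of experiment 2 held the highest WT value, with all other WT libraries below the KO median. Its difference was 0.59 (SE 0.28). Oas2 averaged 28.4 ± 13.9 TPM over the 11 WT libraries and 48.8 ± 24.9 TPM over the 10 KO libraries (mean ± SD), a difference of 0.59 (SE 0.29). Oasl1, which represses Irf7 translation in the mouse, stood at 27.4 ± 11.8 and 42.97 ± 22.2 TPM. Oas1a stood at 29.6 ± 11.7 and 38.1 ± 16.3 TPM and shares 97.5% of 1860 aligned transcript bases with Oas1g, so its level is uncertain. Oas3 was low, at 7.76 ± 6.09 and 10.02 ± 5.73 TPM.

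The 2 Mx genes encode dynamin-like antiviral GTPases, and many laboratory mouse strains carry defective copies. Their longest protein-coding transcripts shared 94.8% of 920 aligned bases, so some reads could have been split between them and their separate levels are uncertain. Mx2 stood in experiment 1 at 12.5, 36.8 and 39.6 TPM in WT and at 67.9 and 89.0 TPM in KO, and in experiment 3 at 12.5 and 12.1 TPM in WT and at 20.4 and 60.8 TPM in KO. In experiment 2 it stood at 24.5, 35.6 and 105 TPM in WT and at 84.1, 137, 129 and 61.3 TPM in KO. In experiment 4 it stood at 9.05, 6.36 and 31.6 TPM in WT and at 4.82 and 7.02 TPM in KO. Libraries labelled KO were thus above all WT libraries in experiments 1 and 3, overlapped WT in experiment 2, and lay below the middle WT value in experiment 4. The difference was 0.78 (SE 0.37, limma adjusted p = 0.820), with an unadjusted p at or over 0.05 in 23 of 39 alternative fits, and the test of whether the KO minus WT difference varied between experiments had an unadjusted p of 0.0583, the smallest of the 37, with a limma adjusted p = 1.00. Mx1 ran from 0 through a median of 3.55 to 16.6 TPM in WT and from 0 through 8.96 to 15.1 TPM in KO, with its highest value in WT replicate 2 of experiment 3, the library highest in macrophage markers.

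Among the 11 other effectors 10 stood above 0. Rsad2, which encodes viperin, an enzyme that makes a chain-terminating nucleotide, had the smallest p of the genes above 0. In experiment 1 it stood at 64.1, 25.6 and 62.3 TPM in WT and at 100.4 and 114.3 TPM in KO, and in experiment 3 at 58.2 and 62.1 TPM in WT and at 79.5 and 128.9 TPM in KO. In experiment 2 the values were 34.4, 60.02 and 102.6 TPM in WT and 101.1, 126.3, 42.7 and 79.7 TPM in KO, and in experiment 4 they were 45.6, 14.8 and 57.1 TPM in WT and 105.7 and 31.2 TPM in KO. The groups did not overlap in experiments 1 and 3, they overlapped in experiment 2, and 1 KO library lay among the WT values in experiment 4. Rsad2 differed by 0.74 (SE 0.29, unadjusted p = 0.0175, limma adjusted p = 0.820), a ratio of 1.67. Its unadjusted p was 0.05 or more in 3 of 39 alternative fits, and that of Ddx58, Ddx60 and Herc6 in 10 each.

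Ddx60, an RNA helicase, ran from 4.40 through a median of 17.1 to 61.8 TPM in WT and from 7.89 through 24.8 to 58.9 TPM in KO. The ranges overlapped widely, while within experiment 1 the KO values of 40.3 and 23.1 TPM were above the WT values of 18.7, 4.40 and 5.42 TPM. Its difference was 0.72 (SE 0.31). Bst2, or tetherin, which holds budding virus on the cell, was the highest effector, from 77.3 through 213 to 396 TPM in WT and from 86.9 through 193 to 408 TPM in KO. The groups overlapped, and the difference was 0.17 (SE 0.24).

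Ifi44, a cytoplasmic interferon-induced protein, averaged 62.8 ± 29.1 TPM over the 11 WT libraries and 92.4 ± 41.9 TPM over the 10 KO libraries (mean ± SD), and Ifi35 at 59.3 ± 20.3 and 89.1 ± 35.5 TPM. Rtp4, a Golgi chaperone of receptors, stood at 61.5 ± 24.5 and 79.0 ± 27.8 TPM, and Samd9l, an antiviral growth suppressor, at 71.6 ± 17.9 and 96.2 ± 28.9 TPM. Eif2ak2, the kinase PKR that stops translation on sensing double-stranded RNA, stood at 89.2 ± 46.2 and 118.8 ± 54.9 TPM. Cmpk2, a mitochondrial nucleotide kinase encoded beside Rsad2, stood at 28.4 ± 13.2 and 38.6 ± 20.1 TPM, and Xaf1, a promoter of apoptosis, at 98.96 ± 39.5 and 132.4 ± 59.3 TPM. These 7 differed by 0.25 to 0.50, and none was under an unadjusted p of 0.05.

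Ifi27l2a, a small protein of the Ifi27 family, stood apart from the rest. In experiment 2 it was at 5.04, 5.86 and 3.97 TPM in WT, and in KO it was at 1.02 TPM in replicate 1 and listed at 0 in replicates 2, 3a and 3b. In experiment 3 it was at 38.01 and 77.4 TPM in WT and at 22.8 and 17.5 TPM in KO. It was the 1 gene of 37 with every KO library below every WT library in experiment 2, where 4.91% of all genes had this order, and in experiment 3, where 11.8% had it. In experiment 1 the values were 15.2, 27.9 and 32.9 TPM in WT and 18.8 and 34.9 TPM in KO. In experiment 4 they were 12.3, 17.6 and 14.5 TPM in WT and 19.3 and 0 TPM in KO, the last in the low-Pecam1 library. The groups overlapped in both. Its difference was -1.45 (SE 0.42, unadjusted p = 0.00220, limma adjusted p = 0.820). With a pseudocount of 0.1 in place of 1 the difference was -2.66, without the 3 libraries lowest in Pecam1 it was -0.96, and without experiment 2 it was -1.02 with an unadjusted p of 0.0720. Its WT maximum of 77.4 TPM was in WT replicate 2 of experiment 3, the library highest in macrophage markers, and without that library the difference was -1.38.

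**Figure D3:**
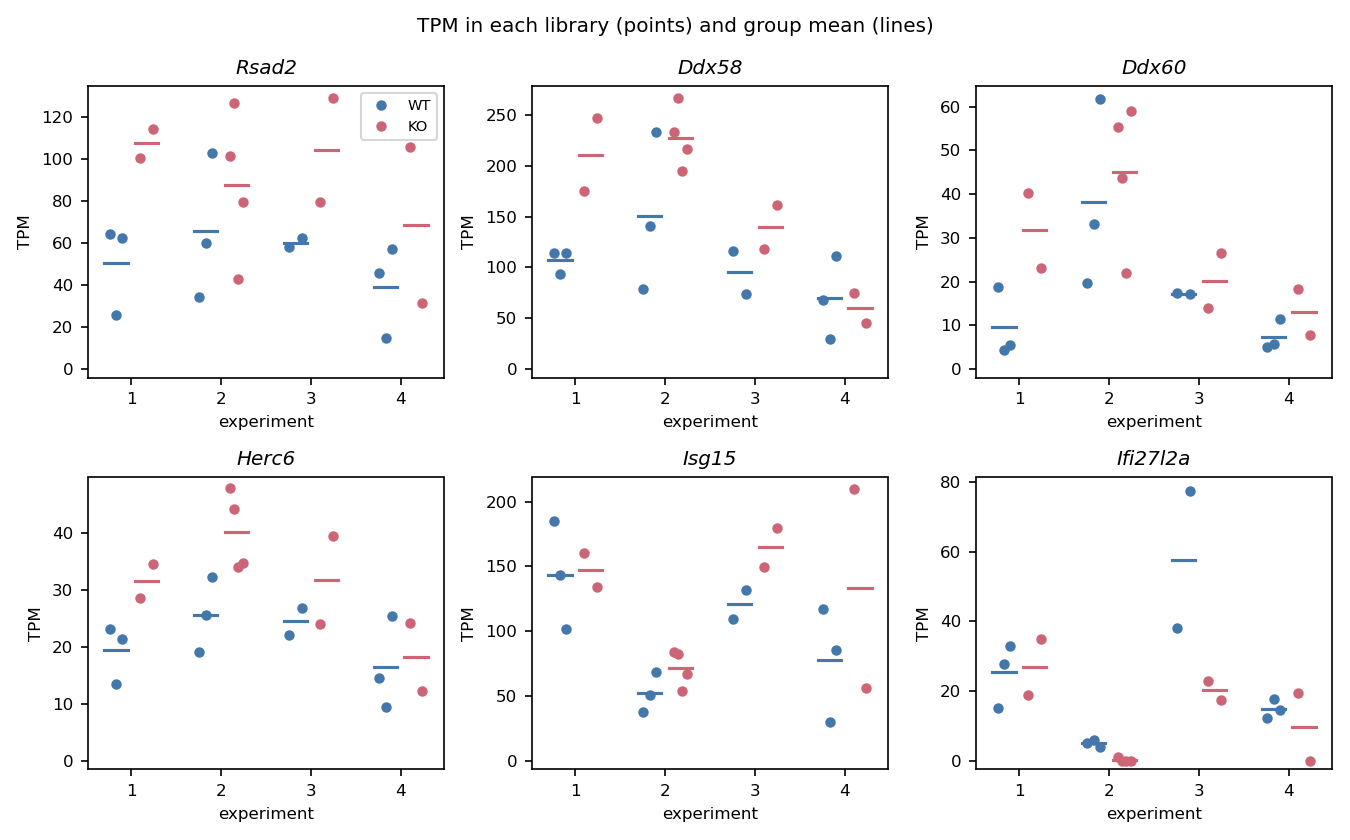
TPM of 6 of the genes in each library (points) by experiment and genotype, with the group means (lines). Herc6 has KO points above all WT points in experiments 1 and 2, Isg15 is low in experiment 2, and Ifi27l2a lies at or near 0 in the KO libraries of experiment 2.

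Within each experiment the median difference of the group stood above that of all genes, and in experiment 4 both were below 0. The KO minus WT median of the group was 0.69, 0.59, 0.42 and -0.21 in experiments 1 to 4, and that of all genes tested was 0.30, -0.18, 0.08 and -0.56. The median of the group was thus 0.40, 0.77, 0.34 and 0.35 above that of all genes. In experiments 1, 2, 3 and 4 the number of the 37 genes above 0 was 37, 34, 35 and 9, where 72.5%, 35.4%, 56.3% and 17.3% of all genes were above 0. In experiment 4 the KO mean, of 2 libraries, included the low-Pecam1 KO replicate 2. The WT mean, of 3 libraries, included the low-Pecam1 WT replicate 2. Of the 33 genes that were above 0 in experiments 1 to 3, 24 were below 0 in experiment 4. With KO replicate 3b placed in experiment 4 the median of the group there was 0.12 and that of all genes -0.39, with 23 of 37 genes above 0 beside 25.3% of all genes. With 3a placed there the medians were 0.0086 and -0.38, with 19 of 37 above 0 beside 25.7%. With both low-Pecam1 libraries of experiment 4 set aside, KO replicate 1 minus the mean of WT replicates 1 and 3 had a group median of 0.09. The median of all genes was not taken for this comparison of 1 KO library, so the value has no baseline. The interaction of genotype and experiment was called for 0 of 37 genes at a limma adjusted p under 0.05, as for 0% of all genes, and 0 of 37 at an unadjusted p under 0.05, against 3.84%.

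Separation of the groups was most frequent in experiments 1 and 3, the experiments with 2 KO libraries and no low-Pecam1 library. Every KO library was above every WT library for 20 of 37 genes in experiment 1, against 18.0% of all genes, and for 22 of 37 in experiment 3, against 18.1%. In experiment 2, with 3 WT and 4 KO libraries, this held for 4 genes (Herc6, Ifit3, Oas3 and Samd9l), where it held for 1.63% of all genes. In experiment 4 it held for 0 of 37 and for 1.61% of all genes. In experiment 2 the count was 5 with 3b placed in experiment 4 (4.5% of all genes), 9 with 3a placed there (4.27%) and 27 with both left out (15.8%). The libraries labelled KO in experiments 1 and 3 were not set apart from WT by Shb.

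**Figure D4:**
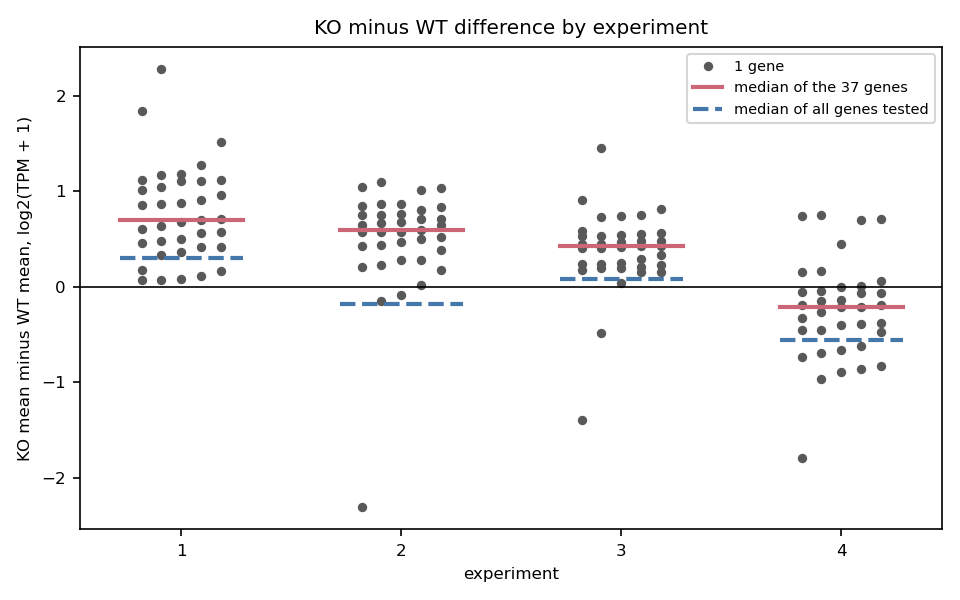
KO mean minus WT mean of each of the 37 genes (points) in each experiment on the log2(TPM + 1) scale, with the median of the group (solid line) and of all genes tested (dashed line). The solid line is above the dashed line in all 4 experiments, by 0.34 to 0.77, and both are below 0 in experiment 4.

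The level of the group relative to endothelial transcripts within the same library does not depend on how the rest of the library was scaled. The summed TPM of the 37 genes divided by that of the 10 pan-endothelial genes was 0.300, 0.347 and 0.377 in WT and 0.403 and 0.443 in KO in experiment 1. In experiment 2 it was 0.445, 0.347 and 0.389 in WT and 0.474, 0.500, 0.436 and 0.547 in KO. The groups did not overlap in experiment 1, and in experiment 2 they overlapped by 1 library each, of which the WT library was the low-Pecam1 replicate 1. In experiment 3 the ratio was 0.283 and 0.652 in WT and 0.335 and 0.481 in KO, with 0.652 in the WT library high in macrophage markers. In experiment 4 it was 0.284, 1.41 and 0.399 in WT and 0.369 and 0.536 in KO, with 1.41 and 0.536 in the low-Pecam1 libraries. The groups overlapped in both. Over the libraries other than the 3 lowest in Pecam1 the median was 0.347 in WT (n = 9) and 0.443 in KO (n = 9), with ranges of 0.283 to 0.652 and 0.335 to 0.547.

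**Figure D5:**
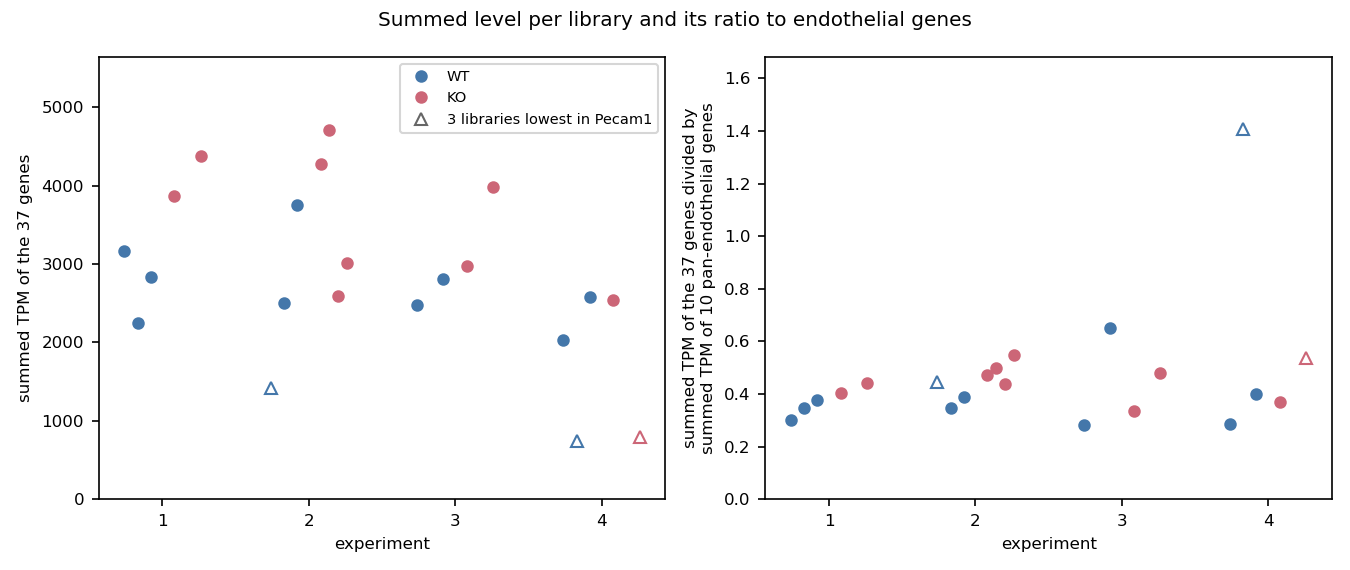
Summed TPM of the 37 genes (left) and its ratio to the summed TPM of 10 pan-endothelial genes (right) in each library, by experiment and genotype. The 3 libraries lowest in Pecam1 (triangles) are low on the left, at 740, 793 and 1420 TPM, and WT replicate 2 of experiment 4 has the highest ratio, 1.41.

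Markers of other cell types stood on the opposite side of 0 from most of the interferon-stimulated genes. All 9 leukocyte markers tested were below 0, with a median difference of -1.20, and so were all 10 macrophage and monocyte markers (-1.39), all 4 fibroblast markers (-1.31) and all 5 pericyte and smooth muscle markers (-1.04), and 9 of 10 pan-endothelial markers were above 0 (0.14). None of these passed. The summed macrophage and monocyte markers lay between 45.9 and 4841 TPM in WT and between 18.2 and 199 TPM in KO. Of 6 markers of plasmacytoid dendritic cells, which make much interferon, Siglech, Ccr9, Cox6a2, Pacsin1 and Klk1 were listed at 0 in more than 10 of the 21 libraries, and Tcf4 is also an endothelial gene. The part of cell composition in the differences was not tested beyond the fits with leukocyte and fibroblast or with endothelial marker covariates given above.

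The 17 genes called between experiments at a limma adjusted p under 0.05 made up 45.9% of the group, where 29.1% of all genes were called. Of the 17, 14 had a mean in experiment 2 above that of the other experiments, among them Mx2, Ddx60, Oasl2, Parp14 and Ddx58. The 3 with a lower mean in experiment 2 were Bst2, Isg15 and Ifi27l2a. Bst2 lay between 77.3 and 128 TPM in experiment 2 and between 97.6 and 408 TPM in the others, and Ifi27l2a lay between 0 and 5.86 TPM in experiment 2 and between 0 and 77.4 TPM in the others. Isg15 averaged 63.4 TPM in experiment 2 and 144.8, 142.8 and 99.8 TPM in experiments 1, 3 and 4. Mx2 averaged 82.4 TPM in experiment 2 and 49.2, 26.4 and 11.8 TPM in the others in the same order. In experiment 4, leaving out WT replicate 2 gave a count of 11 (29.7%, beside 22.9% of all genes) and leaving out KO replicate 2 gave 8 (21.6%, beside 17.4%). Leaving out the 3 libraries lowest in Pecam1 gave 7 (18.9%, beside 14.2%). With TPM rescaled without mitochondrial and small RNA genes the count was 5 (13.5%, beside 13.9%), and without experiment 4 it was 4 (10.8%, beside 13.3%), so in these fits the share was no larger than that of all genes. With KO replicate 3b placed in experiment 4 it was 13 (35.1%, beside 25%).

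These differences moved with transcript length. Over all genes the median of experiment 2 minus the other experiments was -0.25, 0.04, 0.27 and 0.53 over 4 equal classes of exon length from shortest to longest, and within the group it was -0.46, 0.31, 0.29 and 0.89. Bst2, Isg15 and Ifi27l2a have 903, 756 and 463 exon bases and lie in the shortest class, while Ddx58, Ddx60 and Parp14 have 7050, 8684 and 9306 and lie in the longest. The KO minus WT difference of the group did not follow length in this way, with medians of 0.43, 0.47, 0.26 and 0.44 over the same classes, beside -0.20, -0.16, -0.10 and -0.04 for all genes. The part of length in the differences between experiments was not tested.

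The pathway above and around these genes was measured as well, in a list of 88 further gene symbols of which 85 were in the table and 75 were tested. Among the absent symbols, Cgas and Sting1 are later names of Mb21d1 and Tmem173, which were in the table and tested. Of the 75, 46 were above 0 (61.3%, beside 36.0% of all genes) and 29 below, with a median of 0.06, and 0 passed. The ligand genes were near 0: Ifnk, Ifnl2 and Ifnl3 were listed at 0 in all 21 libraries, Ifnb1 and Ifna4 in 20 and Ifng in 17. The receptor chain Ifnar1 averaged 73.8 TPM in WT and 76.5 TPM in KO, a difference of -0.08 (SE 0.25). Of 10 kinases and factors 6 were above 0 (60.0%), and of 9 feedback genes 3 were (33.3%, near the share of all genes). Of 10 genes of interferon induction 4 were above 0 (40.0%), and of 5 ligands and receptors tested 2 were (40.0%). Those shares too were near that of all genes. Of 41 other interferon-induced genes tested 31 were above 0 (75.6%), with a median of 0.22, and 3 were above 0 with an unadjusted p under 0.05 (7.32%, beside 0.948% of all genes). The 2 with the smallest p in the list were Pml, a nuclear body protein, with 72.5 ± 41.1 TPM over the 11 WT libraries and 128.7 ± 58.9 TPM over the 10 KO libraries (mean ± SD), and Nmi, an interferon-induced adaptor protein, at 15.8 ± 9.14 and 27.5 ± 10.4 TPM. Their differences were 0.67 (SE 0.25) and 1.08 (SE 0.42, limma adjusted p = 0.820 for both).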

How the data were processed

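Total RNA was sequenced from CD31-sorted tumour cells of 11 WT and 10 KO samples. The authors deposited 1 table of TPM per Ensembl gene with decimal commas, which were read as decimal points, and columns then summed to 1000000. Per the submitters' processing notes the genome build was GRCm38, and which aligner and counter were used is not given in the sources used here. Depth is unknown, and 0 columns were left unused. Because columns share a fixed sum, abundant transcripts lower the values of the rest.

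A gene was kept at 1 TPM or more in 10 or more libraries and tested on log2(TPM + 1) with limma 3.58.1 (statmod 1.5.0, R 4.3.3), with genotype and experiment terms, a trended robust prior, and Benjamini-Hochberg adjustment over 13503 genes. Experiments were compared by F tests. The fit was tested on simulated data. The genes and lists were chosen with earlier results of these data known. All 37 are named, with values in every library, or the lowest, median and highest, for the 4 genes with the smallest p above 0 and the 2 below, the highest mean of each role and the widest range between experiments. Isg15 was shown by library after its values were seen. Exon lengths and overlaps came from GENCODE of the same build, and promoter windows from RefSeq. Alternatives were 39 fits, 1 of them, with the endothelial marker mean as a covariate, added after the data were examined. WT and KO samples share replicate numbers, but same-numbered samples did not deviate together in every pair (r of deviations from -0.20 to 0.36), so the main fit has no replicate block.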

Additional observations from a re-analysis of the deposited data

Results flagged for a closer look

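Of 74 groups of values examined, 18 held a library far from the rest by Dixon's 95% criterion. The groups were, for each gene, all KO libraries and the KO libraries of experiment 2. WT libraries were not examined in this way, so the flags do not compare KO with WT. Chance flags about 1 in 20 groups when groups are independent, which genes measured in the same libraries are not. In 14 genes the value was that of KO replicate 2 of experiment 4, the KO library lowest in Pecam1, which stood below the other 9 KO libraries. There Dhx58 was at 5.70 TPM, Herc6 at 12.2, Trim25 at 19.4, Dtx3l at 12.8, Parp14 at 34.9, Ifit2 at 16.7 and Ifit3 at 5.86 TPM. Oas1a was at 6.28, Oasl1 at 6.26, Mx1 at 0, Samd9l at 31.0, Xaf1 at 14.9, Ifi35 at 15.6 and Ifi44 at 17.7 TPM. The next KO library stood at 62.5 TPM for Ifit3 and at 101 TPM for Xaf1. Pecam1 in that library was 242 TPM, and its part in these values was not tested. Low values were not limited to KO. With a tie counted once, WT replicate 2 of experiment 4 held the lowest value of all libraries for 17 genes. KO replicate 2 of experiment 4 held it for 14.

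Among the 4 KO libraries of experiment 2, Ifit3b at 10.8 TPM and Eif2ak2 at 118 TPM were lowest in replicate 3a, with the next libraries at 23.5 and 180 TPM. Bst2 was highest in replicate 3b, at 128 TPM with the next at 91.5 TPM. Ifi27l2a was at 1.02 TPM in replicate 1 and listed at 0 in the other 3.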

How the results depend on the processing

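No gene of the group passed for genotype or for the interaction in any alternative run, and the smallest limma adjusted p over genes and fits was 0.451. The number above the all-gene median stayed between 33 and 36 and the relative median between 0.36 and 0.61, whereas the number under an unadjusted p of 0.05 toward higher levels moved. From 8 (0.948% of all genes) it went to 22 (3.86%) with libraries set to a common median, which moves the all-gene median by more than 0.1, to 20 (4.03%) with quantile normalization and to 14 (2.18%) with TPM rescaled without mitochondrial and small RNA genes. It was 3 (0.955%) without the experiment term and 16 (2.46%) with the replicate block. Without experiments 1, 2, 3 and 4 it was 0, 2, 2 and 21 (0.526%, 0.549%, 0.624% and 5.16%). It was 16 (1.55%) without the 3 libraries lowest in Pecam1, 0 (0.511%) with leukocyte and fibroblast covariates and 11 (1.27%) with the endothelial covariate. With 1 library left out it lay between 1 and 22 (0.519% to 3.0% of all genes). Of 10 KO libraries 3 correlated best with the WT library of their number. Each had only 2 or 3 WT libraries of its experiment to match, so this count does not show pairing. With no filter the number called between experiments went from 17 (29.1% of all genes) to 11 (9.95%). That number was 10 (18.5%) with a common median, 10 (20.6%) with quantile normalization and 5 (13.9%) rescaled. Without experiments 2 and 4 it was 0 and 4 (0.0333% and 13.3%), and without the 3 libraries lowest in Pecam1 it was 7 (14.2%). Leaving out 1 library gave between 8 (17.4% of all genes) and 25 (37.6%).

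Of 1443 single-gene differences under alternatives, 36 in 13 genes changed sign. With leukocyte and fibroblast covariates these were Ifih1 -0.063, Dhx58 -0.016, Irf7 -0.022, Irf9 -0.16, Trim30a -0.17, Dtx3l -0.23, Parp9 -0.31, Parp14 -0.071, Cmpk2 -0.049, Eif2ak2 -0.098 and Xaf1 -0.28. Trim25 was 0.067 with the replicate block, 0.097 without experiment 4, 0.0084 with KO replicate 3a or 3b placed in experiment 4 and 0.019 without both. Dtx3l was -0.090 and -0.012 without experiments 1 and 3 and -0.062 with the endothelial covariate. Oas3 was -0.066 and -0.0062 without experiments 1 and 2, Cmpk2 -0.030 without experiment 1 and Xaf1 -0.040 without experiment 2. With 1 library left out Trim25 ran from -0.21 to 0.081, Dtx3l from -0.079 to 0.23 and Parp9 from -0.024 to 0.23. The cause was not tested. TPM keeps no depth, so the limit of detection of low genes such as Mx1 and Ifi27l2a is unknown.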
